A study of Mus musculus with 48 samples.

Results

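Dnase1 encodes deoxyribonuclease I, a secreted enzyme that cuts DNA outside cells. It was measured in mouse kidney by 1 probe set of the 45137 on the 2 chips that are not controls. All probe sets annotated to Dnase1 were taken. The 430A chip carries 1 of them and the 430B chip carries 0. The gene was chosen by its measured signal, for the large difference between Hyp and normal kidneys on both diets, so its difference between Hyp and normal pools is given below as a description with no test, and only its responses to sex and diet and the interactions are tested.

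The study crossed genotype, diet and sex in 24 pools of whole-kidney RNA from 72 mice. Mice with Hyp carry a defect in Phex, on the X chromosome, and have low blood phosphate. Hyp males were hemizygous (Hyp/Y), Hyp females were heterozygous (Hyp/+), and the normal mice were their littermates. The mice were 10 weeks old and received the low phosphate or the control diet for 3 days. The groups were Hyp males on low phosphate, Hyp males on the control diet, Hyp females on low phosphate, Hyp females on the control diet, and normal males and normal females on the same diets, with 3 pools each. Every pool combined 3 mice, so the spread between pools is that of averages of 3 animals. The Hyp females keep a normal copy of Phex, and a strain name, C57BL/6J, is given for 1 array alone.

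Deoxyribonuclease I hydrolyses double-stranded DNA with the help of calcium and magnesium ions, and monomeric actin binds and inhibits it. In mammals it is made by epithelia of the digestive tract, pancreas, salivary glands and kidney, and it reaches blood and urine, where it breaks down DNA released from dying cells. Dnase1l3, a related secreted enzyme, acts on DNA packed in chromatin, and Dnase2a works in lysosomes. DNA that is not cleared can be sensed by receptors that switch on interferon genes.

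Xist, which silences an X chromosome in females, matched the sex labels, at 124.5 ± 33.7 in male pools and 1722.6 ± 193.8 in female pools (SD, n = 12 each). Phex was not a usable check, because its probe sets never passed 49.8, below every array median of the 430A chip (164.6 to 211.1). Across features, r between pools within a group was 0.923 to 0.946. Of 18642 features tested with limma, 194 were higher and 169 lower in Hyp than in normal pools, which is 1.04% and 0.907% of those tested.

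The 250 bases before the upstream of the 2 annotated starts of Dnase1 are shown to place the gene and the letters around its start. They lie on chromosome 16 of GRCm38.p6 at chr16:4036786-4037035, plus strand, and come from RefSeq. Capitals mark matches to searched motifs.
Dnase1: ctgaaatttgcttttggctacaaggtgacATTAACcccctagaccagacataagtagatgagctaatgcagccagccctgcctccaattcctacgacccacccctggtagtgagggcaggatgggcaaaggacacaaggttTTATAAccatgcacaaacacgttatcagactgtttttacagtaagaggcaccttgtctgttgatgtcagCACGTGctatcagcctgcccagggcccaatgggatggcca

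The motifs were searched on both strands as exact letters. The E-box CACGTG lay 40 bases before this start and occurs in 6.02% of 32851 mouse windows of 250 bases before a start. GTTAAT, a core that HNF1 factors recognise, was found on the minus strand 221 bases before the start and occurs in 6.43% of windows. TATAA was found at 109 and 108 bases, on opposite strands and overlapping each other, and occurs in 22.8% of windows. TGACGTCA, the cAMP response element, had 0 matches and occurs in 1.55% of windows. The longer HNF1 site (GTTAAT, any base, ATTAAC) and the HNF4 site CAAAGTCCA also had 0 matches, and they occur in 0.00913% and 0.384% of windows. AGGTCA, read by nuclear receptors, occurs in 14.0% of windows. It was absent from these bases and present 52 bases before the other annotated start, which lies 109 bases downstream.

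Dnase1 signal was low in every Hyp pool and high in every normal pool. In Hyp males on low phosphate the signals of pools 1, 2 and 3, numbered by the series in the labels, were 2931.2, 5083.3 and 5821.4, and in normal males on low phosphate they were 16251.1, 15575.7 and 17980.6. In Hyp males on the control diet they were 4394.8, 3210.1 and 4120.1, against 16000.1, 14329.2 and 19472.8 in normal males on the control diet. The male groups of the 2 genotypes did not overlap on either diet.

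Hyp females on low phosphate had signals of 3553.4, 3417.4 and 4129.4, against 15596.9, 12790.0 and 19311.0 in normal females on low phosphate. Hyp females on the control diet had 2649.5, 2444.4 and 2811.0, and normal females on the control diet had 11972.5, 11728.9 and 13796.1. The female groups of the 2 genotypes did not overlap either, and in each genotype the lowest pool was a control diet female pool.

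**Figure D1:**
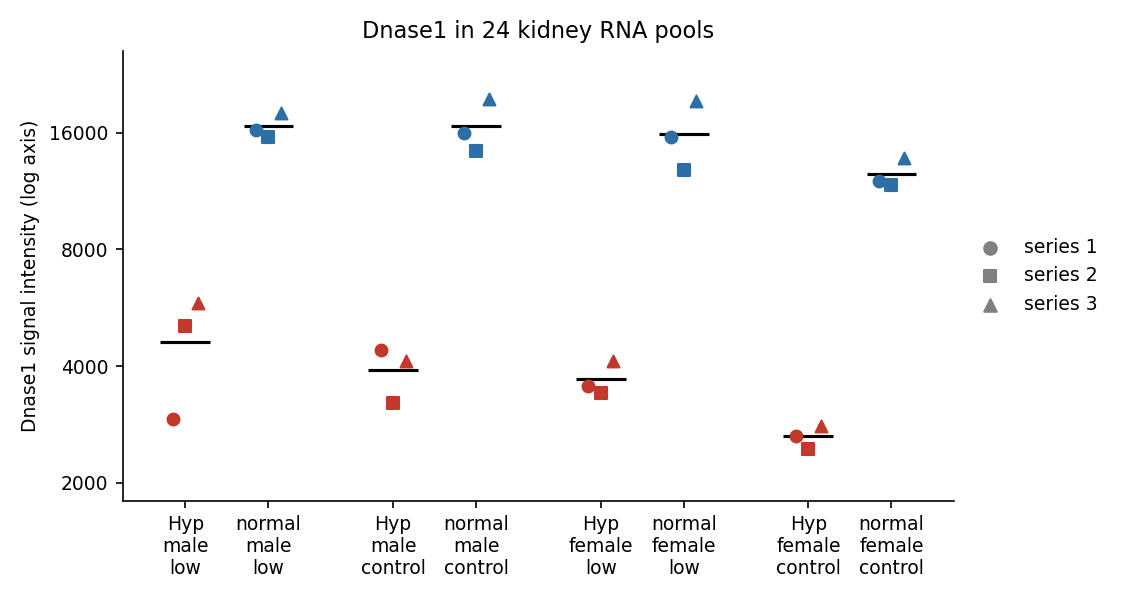
Dnase1 signal intensity (vertical log axis, arbitrary units) in each of the 24 pools, by genotype, sex and diet. Each point is a pool, its shape gives the series number of the labels, red is Hyp, blue is normal and the line is the mean of 3 pools. The 12 Hyp pools lie between 2444.4 and 5821.4 and the 12 normal pools between 11728.9 and 19472.8.

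Over both diets and sexes the 12 Hyp pools averaged 3713.8 ± 1029.5 and the 12 normal pools 15400.4 ± 2619.0 (SD). The median was 3485.4 in Hyp pools and 15586.3 in normal pools. The lowest normal pool was 2.01 times the highest Hyp pool. Hyp signals were still well above the middle of their arrays, at 12.2 to 34.0 times the array median, against 58.6 to 112.6 times in normal pools. The highest Dnase1 signal was 52.4% of the highest signal on its array. In whole-kidney RNA, fewer cells that make Dnase1 and less Dnase1 RNA per cell cannot be told apart.

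On the log2 scale Hyp minus normal was -2.08 ± 0.10 (SE, 12 pools against 12), with a 95% interval of -2.29 to -1.87. Signal in Hyp was 23.6% of that in normal, a 4.23-fold difference. It was the lowest log2 difference among the 18642 features, followed by Cyp27b1, which makes active vitamin D, at -1.72 ± 0.26 and the glucuronosyltransferase gene Ugt2b37 at -1.70 ± 0.36. By absolute size 5 features, all higher in Hyp, lay above it. In separate strata it was -1.90 in males on low phosphate, -2.09 in males on the control diet, -2.09 in females on low phosphate and -2.24 in females on the control diet (SE 0.20 each), between 3.74-fold and 4.74-fold. These values are what the gene was chosen for, and nothing is read from their size.

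**Figure D2:**
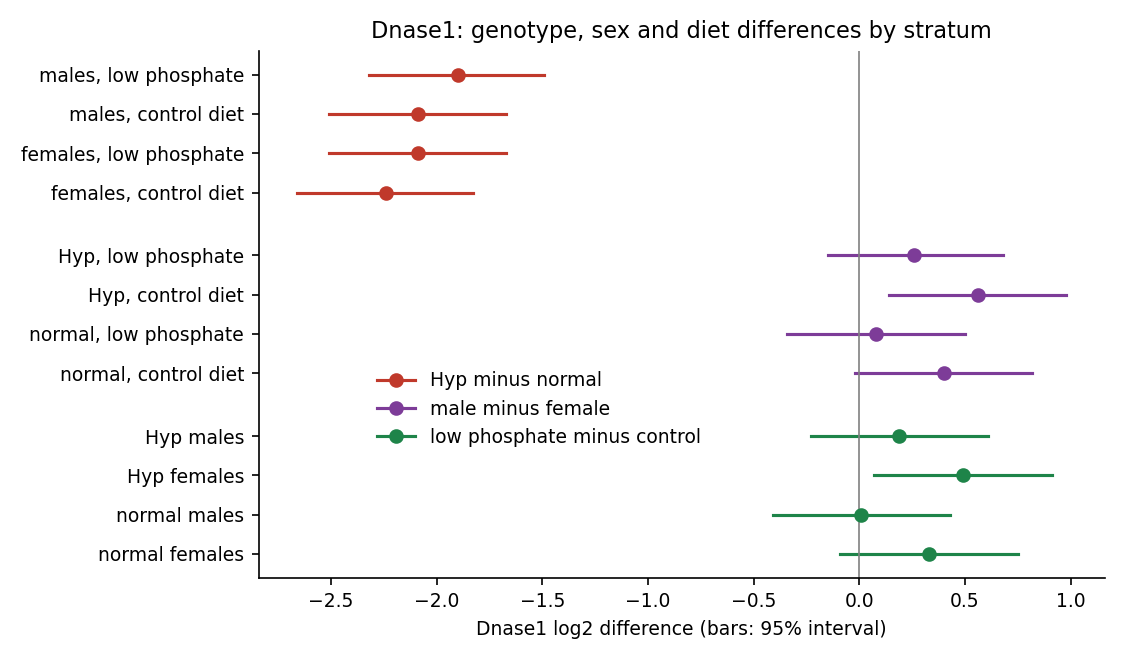
Dnase1 log2 differences (horizontal axis) within strata, with 95% intervals from the limma fit. Red compares Hyp with normal, purple male with female and green low phosphate with control. The 4 genotype differences lie between -2.24 and -1.90, and the sex and diet differences lie between 0.01 and 0.56.

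The order of the 8 groups followed genotype, with the groups of a genotype running into one another. Mean signal was 16602.5 ± 1240.4 in normal males on low phosphate, 16600.7 ± 2623.9 in normal males on the control diet, 15899.3 ± 3271.0 in normal females on low phosphate and 12499.2 ± 1129.8 in normal females on the control diet (SD, n = 3 each). Neighbours in this order overlapped. It was 4612.0 ± 1501.6 in Hyp males on low phosphate, 3908.3 ± 620.1 in Hyp males on the control diet, 3700.1 ± 378.0 in Hyp females on low phosphate and 2635.0 ± 183.7 in Hyp females on the control diet. Here neighbours overlapped too, except that Hyp females on low phosphate lay above Hyp females on the control diet in all pools. The coefficient of variation within a group ran between 7.0% and 32.6%, and the widest group was Hyp males on low phosphate.

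Dnase1 was higher in male than in female kidneys. Male minus female was 0.33 ± 0.10 on the log2 scale (95% interval 0.12 to 0.53, 12 pools against 12), a 1.25-fold difference that passed limma's test at an adjusted p of 0.0301. Sex changed many features: 15.8% of those tested were called, 6.07% higher and 9.78% lower in males. That split depends on scaling, with 1131 higher and 1823 lower as deposited and 1697 higher and 970 lower when arrays were scaled to a common median. For Dnase1 the median scaling gave 0.42 ± 0.11 (adjusted p = 0.0135).

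The call was a narrow one. Without the filter on dim probe sets, which raises the number of tests, the adjusted p was 0.0705. It was also lost, at adjusted p-values of 0.052 to 0.0594 and differences of 0.28 to 0.32, without any 1 of 10 of the 24 pools. These were pools 2 and 3 of Hyp males on low phosphate, pools 1 and 3 of Hyp males on the control diet, pool 2 of Hyp females on low phosphate, pool 2 of Hyp females on the control diet, pool 3 of normal males on low phosphate, pool 3 of normal males on the control diet, pool 2 of normal females on low phosphate and pool 2 of normal females on the control diet. The direction was the same without each of the 24 pools. These fits leave out the series number. With that number as a block and all 24 pools, limma's adjusted p was 0.00922.

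Males had the higher mean in all 4 strata of genotype and diet. The ratio of male to female means was 1.48 in Hyp pools on the control diet and 1.33 in normal pools on the control diet. In both strata every male pool lay above every female pool. Limma nevertheless called neither stratum for sex (adjusted p = 0.167 in Hyp and 0.366 in normal pools). On low phosphate the ratio was 1.25 in Hyp pools and 1.04 in normal pools, where the sexes overlapped. Within a genotype the sex difference was 0.41 ± 0.14 in Hyp pools (adjusted p = 0.0935) and 0.24 ± 0.14 in normal pools (adjusted p = 0.353), so it did not pass in either alone, where limma called 7.18% and 9.23% of features.

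The low phosphate diet gave a small positive difference that did not pass. Low phosphate minus control was 0.25 ± 0.10 on the log2 scale (95% interval 0.05 to 0.46, limma adjusted p = 0.387), in a comparison that called 0.772% of features. Within a genotype it was 0.34 ± 0.14 in Hyp pools (adjusted p = 0.727) and 0.17 ± 0.14 in normal pools (adjusted p = 0.793), where 0.15% and 0.467% of features were called. The ratio of low phosphate to control means was 1.18 in Hyp males, 1.4 in Hyp females, 1.0 in normal males and 1.27 in normal females. The diets were separated in Hyp females, where limma's test did not pass (adjusted p = 0.638), and overlapped in the other 3 strata.

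No interaction passed limma's test for Dnase1, and the intervals are wide. The genotype difference on low phosphate minus that on the control diet was 0.17 ± 0.20 (95% interval -0.25 to 0.59, adjusted p = 0.964), a value limited by the choice of a gene low in Hyp on both diets. This interaction called 0.0161% of features. The genotype difference in hemizygous males minus that in heterozygous females was also 0.17 ± 0.20 (95% interval -0.25 to 0.59, adjusted p = 0.929), with 0.0805% of features called. The diet difference in males minus that in females was -0.31 ± 0.20 (95% interval -0.73 to 0.11, adjusted p = 0.912), where limma called 0 features and 1019 had an unadjusted p under 0.05. The intervals of the first 2 interactions leave room for a difference between strata of up to 0.59 on the log2 scale.

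Within groups Dnase1 varied with the series number in the labels, which do not say what the number marks. The series 3 pool was the highest of its group in 7 of 8 groups, and the series 2 pool was the lowest in 7 of 8. Mean deviations of the log2 signal from the group mean were -0.07, -0.12 and 0.19 for series 1, 2 and 3. After division by the array median the series 3 pool was the highest in 8 of 8 groups. Each series holds every group, so the comparisons can be read within it. Hyp minus normal was -2.16, -1.99 and -2.10 in series 1, 2 and 3. Male minus female was 0.23, 0.38 and 0.36, and low phosphate minus control was 0.06, 0.35 and 0.36.

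The genes around Dnase1 on chromosome 16 were read beside it. Dnase1 was chosen for its difference and had the lowest of 18642 features, so smaller differences around it follow from that choice. The 6 nearest genes with a kept feature on each side were taken. Limma called 0 of these 12 for genotype, where 1.95% of all features were called. An unadjusted p under 0.05 was found for 1 of the 12, beside 1994 of 18642 features. Their log2 differences between Hyp and normal pools ran between -0.26 and 0.19 with a median of -0.10, and 9 were below 0. The genotypes overlapped for all 12, as they did for all but 9 of 18642 features (0.0483%).

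Trap1, which encodes a mitochondrial chaperone and overlaps Dnase1 in the gene table, is the closest. Its signal was 3409.2 ± 292.0 in Hyp pools and 3463.6 ± 278.6 in normal pools (SD, n = 12 each), a log2 difference of -0.02 ± 0.05 (adjusted p = 0.941). Another Trap1 probe set gave -0.05 ± 0.06. Slx4, a scaffold for DNA repair nucleases on the other side of Dnase1, gave -0.13 ± 0.08 (adjusted p = 0.611), and Crebbp, a histone acetyltransferase gene, gave -0.07 ± 0.12 (adjusted p = 0.913) on a feature above the array median on 5 of 24 arrays. Glis2, a zinc finger factor, had the smallest adjusted p of the 12 (-0.19 ± 0.06, adjusted p = 0.124).

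Of the other neighbours, Nlrc3 gave 0.01 ± 0.15, Cluap1 -0.18 ± 0.11, 1700037C18Rik 0.05 ± 0.12, Naa60 -0.12 ± 0.08, Zfp597 0.19 ± 0.10, Adcy9 -0.08 ± 0.08, Srl -0.26 ± 0.19 and D330022H12Rik -0.20 ± 0.16. The sign for Nlrc3 turned under both scalings. Limma called 0 of the 12 for sex, with 3 at an unadjusted p under 0.05 and a lowest adjusted p of 0.0641, beside 15.8% called and 5119 of 18642 at an unadjusted p under 0.05 over all features. It called 0 for diet, with 1 at an unadjusted p under 0.05 and a lowest adjusted p of 0.476, beside 0.772% called and 1772 of 18642 at an unadjusted p under 0.05.

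**Figure D3:**
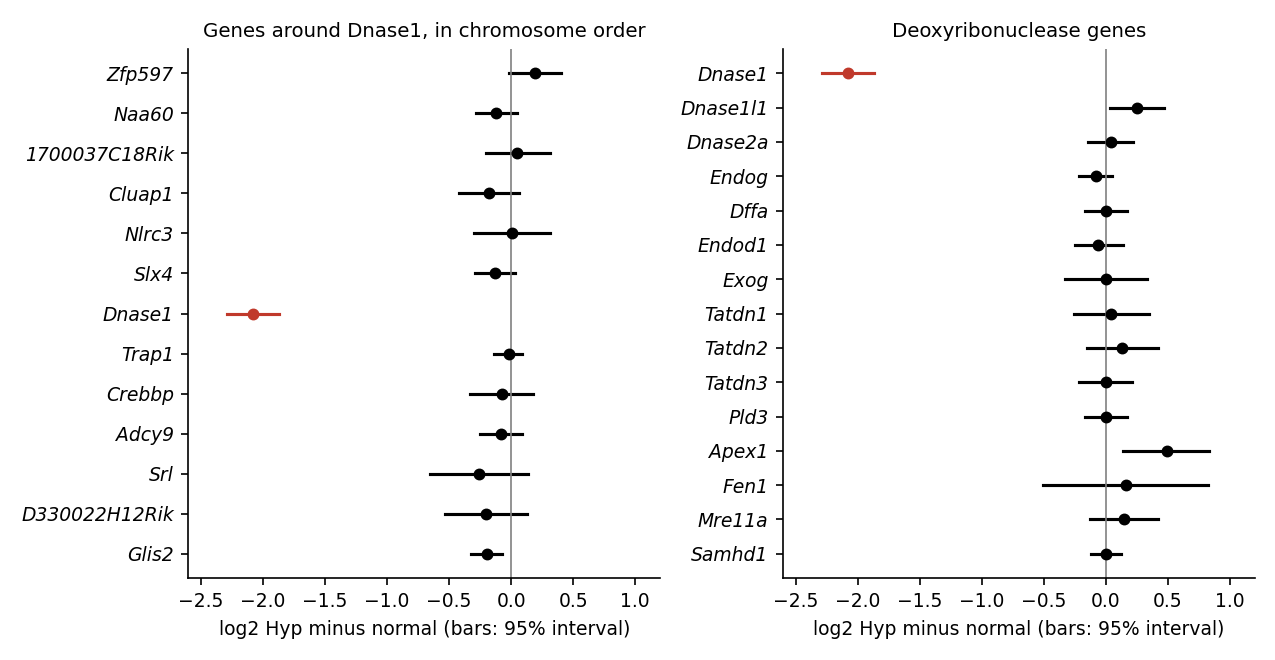
Hyp minus normal log2 difference (horizontal axis, bars are 95% intervals) for Dnase1 in red and other genes in black. The left panel has 12 genes around it in chromosome order. The right panel has 14 other genes, for deoxyribonucleases and related proteins. Dnase1 lies at -2.08, its neighbours between -0.26 and 0.19 and the genes of the right panel between -0.08 and 0.49.

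Other genes for enzymes that cut DNA, with related genes such as Dffa and Samhd1, were listed to see whether they moved with Dnase1. Of 22 listed genes 21 were on the chips and 14 passed the filter on dim probe sets. Limma called 0 of these 14 for genotype, and 2 had an unadjusted p under 0.05. Over all features 1.95% were called and 1994 of 18642 had an unadjusted p under 0.05, so these counts are near the background. Their median log2 difference was 0.02, beside -0.003 for all features. Apex1, which cuts DNA at sites that have lost a base, gave 0.49 ± 0.17 (adjusted p = 0.196). Other Apex1 probe sets gave smaller differences, 0.17 ± 0.06 and 0.35 ± 0.24. Dnase1l1, a membrane-bound relative of Dnase1, gave 0.25 ± 0.10 (adjusted p = 0.348), and the mitochondrial endonuclease gene Endog gave -0.08 ± 0.06 (adjusted p = 0.746).

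The lysosomal enzyme gene Dnase2a had mean signals of 1247.3 ± 176.9 in Hyp pools and 1242.2 ± 319.0 in normal pools (SD, n = 12 each), with a log2 difference of 0.04 ± 0.09 (adjusted p = 0.936). The closest relatives of Dnase1 were dim. Dnase1l3 did not pass 71.2 in Hyp pools and 96.1 in normal pools, Dnase1l2 did not pass 154.0 in Hyp pools and 161.0 in normal pools, and neither exceeded the array median on any array. Dnase2b, Trex2, Dffb, Pld4 and Exo1 were also removed by the filter.

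For sex, 3 of the 14 were called, near the 15.8% of all features, and these are named after their values were seen. Dnase2a was higher in males by 0.42 ± 0.09 (adjusted p = 0.00153), as Dnase1 was. Dnase1l1 was lower in males by -0.50 ± 0.10 (adjusted p = 0.00158), and so was Samhd1, which degrades nucleotides (-0.29 ± 0.06, adjusted p = 0.00135). The same genes were called in the same directions after median scaling and quantile normalization. For diet limma called 0 of the 14, with 4 at an unadjusted p under 0.05, beside 0.772% called and 1772 of 18642 at an unadjusted p under 0.05 over all features.

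Actin and proteins that bind its monomers, the inhibitor side of deoxyribonuclease I, were read next. Of 17 listed genes 13 were kept. Limma called 0 for genotype, with 0 at an unadjusted p under 0.05 and log2 differences between -0.07 and 0.07. These counts are near the background, with 1.95% called and 1994 of 18642 at an unadjusted p under 0.05 over all features. Cytoplasmic actin, from Actb, had signals of 22080.5 ± 2416.3 in Hyp pools and 22514.1 ± 2203.8 in normal pools (SD, n = 12 each), and the cofilin gene Cfl1 had the smallest adjusted p (0.07 ± 0.04, adjusted p = 0.629). For sex the list had 1 higher call, the villin gene Vil1, and 4 lower ones, Tmsb10, Tmsb4x, Gsn and Actg1, of which Actg1 was lost with median scaling, beside 6.07% higher and 9.78% lower over all features.

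Genes that sense DNA or respond to interferon were listed as the other side of DNA clearance. Of 20 listed genes 18 were on the chips and 9 were kept, and the DNA sensors Tlr9 and Aim2 were among those removed as dim. Limma called 0 of the 9 for genotype, with 0 at an unadjusted p under 0.05. These counts are also near the background, with 1.95% called and 1994 of 18642 at an unadjusted p under 0.05 over all features. The median log2 difference of the 9 was 0.01 and the range -0.27 to 0.13. The cytosolic DNA sensor gene Cgas gave 0.01 ± 0.20 (adjusted p = 0.995), its adaptor gene Sting1 -0.27 ± 0.21 (adjusted p = 0.743) and the interferon factor gene Irf7 0.13 ± 0.10 (adjusted p = 0.746). For sex 6 of the 9 were lower in males, beside 9.78% of all features, and 4 of these stayed called after median scaling, beside 970 of 18642 features.

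Markers of nephron segments and other cells were read beside the Dnase1 values, with 1.04% of all features higher and 0.907% lower in Hyp as the background of each count. Of 9 convoluted proximal tubule genes 4 were lower in Hyp (Slc5a2, Slc4a4, Slc34a1 and Slc22a6) and 1 was higher (Slc22a8), and after median scaling 2 lower and 1 higher calls were left. Their summed signal was 44388 to 54783 in Hyp pools and 51055 to 61347 in normal pools. For Slc22a8 the genotype difference in males minus that in females was 0.71 on the log2 scale, an interaction flagged below. Of 8 straight proximal tubule genes 3 were higher (Slc22a19, Cyp7b1 and Slc5a1), with sums of 23435 to 59784 in Hyp pools and 22592 to 48649 in normal pools. These ranges mix the sexes and do not compare the genotypes within a sex. Acsm3, Cyp7b1 and Slc7a13 were far higher in male pools, Acsm3 by 7.59 on the log2 scale. Of 6 intercalated cell genes 3 were higher (Slc26a4, Slc4a1 and Atp6v0d2), with sums of 3701 to 5403 in Hyp pools and 2631 to 4574 in normal pools. The log2 differences of all 6 lay between 0.27 and 0.42. All 6 had an unadjusted p under 0.05 in limma, beside 1994 of 18642 features. Atp6v0d2 lost its call without any 1 of 23 pools. The part of these shifts in the Dnase1 result was not tested.

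Of 6 distal tubule genes 3 were lower in Hyp (S100g, Calb1 and Pvalb) and 1 was higher (Slc12a3), with sums of 12149 to 34645 in Hyp pools and 19069 to 30821 in normal pools. After median scaling 1 lower and 1 higher call were left. By diet, Hyp minus normal was -2.40 on low phosphate and 0.20 on the control diet for S100g, -0.66 and -0.01 in that order for Calb1, and -0.07 and -0.55 for Pvalb. The interaction of genotype and diet passed for S100g (adjusted p = 1.74e-07) and did not pass for Calb1 (0.353) or Pvalb (0.716). Of 7 thick limb genes 2 were higher (Ptger3 and Kcnj1, the second lost without any 1 of 22 pools), with sums of 46136 to 53930 in Hyp pools and 42781 to 56750 in normal pools. Of the 2 fat genes kept, Car3 was lower and the defining fat gene Adipoq gave 0.17 ± 0.16 (adjusted p = 0.825), with sums of 743 to 1499 in Hyp pools and 1347 to 3473 in normal pools. Among principal cell, podocyte, endothelial, leukocyte and liver genes limma called 0 for genotype.

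The pancreas, another organ rich in deoxyribonuclease I, was checked because it lies near the kidney. Of its 5 listed genes 3 were on the chips and 2 were kept. Their summed signal was 2126 to 4026 in Hyp pools and 2359 to 4571 in normal pools, most of it from Cela1. Limma called 0 of the 2 for genotype, with 0 at an unadjusted p under 0.05. Over all features 1.95% were called and 1994 of 18642 had an unadjusted p under 0.05, so these counts are near the background. Prss2, a trypsinogen gene and much the dimmer of the 2, had 138.5 ± 70.7 in Hyp pools and 155.5 ± 43.2 in normal pools (SD, n = 12 each). The check therefore rests mostly on Cela1. Limma called Cela1 higher on low phosphate, beside 0.772% of features called for diet. It was also called lower in males, beside 9.78% of features, and lost that call with median scaling. Whether the Cela1 signal came from pancreas or from kidney was not tested, so the check cannot show how much pancreas the pools held.

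Genes whose signal ran most like that of Dnase1 were named by Pearson's r of the log2 signals over the 24 pools. The pools form separate clusters by genotype for Dnase1, so this r mostly ranks genes by genotype, and r is given within the 12 Hyp and the 12 normal pools too. All values are descriptions over pools that share arrays and groups. Over all features the 1st and 99th percentiles of r were -0.579 and 0.568.

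The 10 named genes with the highest r lay between 0.79 and 0.862. They were Car3 (carbonic anhydrase III), Pth1r (the parathyroid hormone receptor), Slc5a2 (the glucose cotransporter of the early proximal tubule), Nat8f1, Kl (Klotho, the FGF23 coreceptor), Susd2, Car14 (a membrane carbonic anhydrase), Nepn, Msn (moesin) and Scpep1. All 10 were called lower in Hyp, beside 0.907% of all features, by 0.28 to 1.45 on the log2 scale, as the ranking favours. Nat8f1 and Scpep1 lost that call with median scaling. Slc5a2 was the member whose genotypes did not overlap, a pattern the ranking favours and 9 of 18642 features (0.0483%) had, with 2543.4, 3264.3 and 4268.8 as lowest, median and highest signal in Hyp pools, against 4428.3, 5003.7 and 6566.3 in normal pools. Its r of 0.837 with Dnase1 was 0.27 within Hyp and -0.233 within normal pools.

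Within both genotypes r was positive for 7 of these 10 genes, all but Slc5a2, Nepn and Msn, which were negative within normal pools. For Kl, r was 0.814 over all pools, 0.721 within Hyp pools and 0.504 within normal pools, but 0.194 after the mean of each of the 8 groups was removed. Its signal was 3650.4 ± 821.6 in Hyp pools and 5879.8 ± 1360.7 in normal pools (SD, n = 12 each), and it was also higher in males (0.35 ± 0.07, adjusted p = 0.00238) and on low phosphate (0.47, adjusted p = 0.00204). For Scpep1 the values were 0.79, 0.506 and 0.665, and 0.306 with group means removed. For Car3, which had the highest r of all, r was 0.025 within Hyp pools and 0.513 within normal pools.

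**Figure D4:**
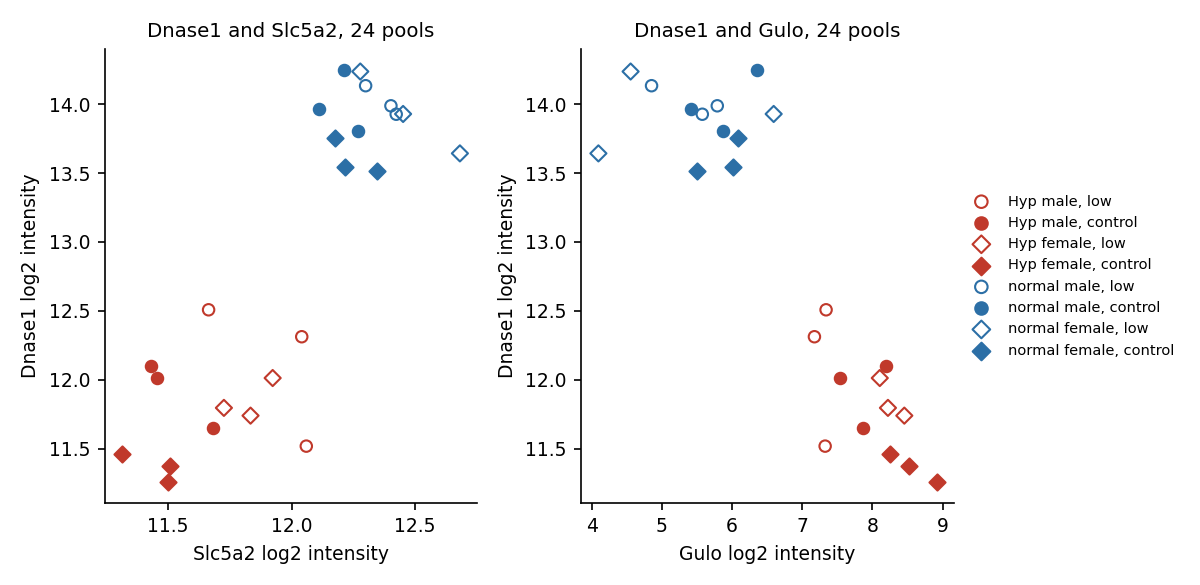
Dnase1 log2 signal (vertical axis) against the log2 signal of Slc5a2 (left) and Gulo (right) in the 24 pools. Red is Hyp, blue is normal, circles are males, diamonds are females, and open symbols are low phosphate. The genotypes form separate clusters for both genes, with r over all pools of 0.837 for Slc5a2 and -0.898 for Gulo.

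The 10 named genes with the lowest r lay between -0.898 and -0.808. All 10 were called higher in Hyp, which the ranking favours, beside 1.04% of all features. They were Gulo (the last enzyme of vitamin C synthesis), Slc13a1 (a sulfate cotransporter of the proximal tubule), Pla2g7, Ltc4s (leukotriene C4 synthase), Rnase4 (a secreted ribonuclease), Dusp6 (a phosphatase of ERK kinases), Dock8, Slc12a3 (the thiazide-sensitive cotransporter), Ttr (transthyretin) and Cyp24a1 (which breaks down active vitamin D). The genotypes did not overlap for 4 of them, Gulo, Slc13a1, Dusp6 and Ttr, which the ranking again favours. Over all features 6 of 18642 (0.0322%) lay above normal in every Hyp pool. Slc13a1 had 6896.1, 8007.3 and 9060.7 as lowest, median and highest signal in Hyp pools, against 2720.7, 4145.6 and 6140.5 in normal pools. Its r with Dnase1 was -0.889 over all pools, -0.424 within Hyp pools and -0.416 within normal pools.

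Pla2g7 gave -0.738 within Hyp pools and -0.32 within normal pools, and Slc12a3 gave -0.734 and -0.435. Cyp24a1 gave 0.449 within Hyp pools and 0.066 within normal pools, the opposite sign to its r over all pools. With group means removed, r for these 10 genes lay between -0.21 and 0.214, and for the 10 genes with the highest r between -0.676 and 0.44.

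With the means of the 8 groups removed, Dnase1 varied with the series number, as given above, and so did the genes with the most extreme r. The highest r was found for Mgst3 (a microsomal glutathione transferase) at 0.779, Dxo (an RNA decapping enzyme) at 0.779, Efna1 (an ephrin) at 0.766, Ifi30 (a lysosomal thiol reductase) at 0.743 and Sco2 (a cytochrome c oxidase assembly factor) at 0.742. The lowest was found for Nxpe3 at -0.793, Jade2 at -0.792, Fzd4 (a Wnt receptor) at -0.789, Igf2r at -0.774 and Tra2b (a splicing factor) at -0.763. The 1st and 99th percentiles over all features were -0.632 and 0.537, so these values lie at the ends of a wide range. The series 3 pool was the highest of its group in 5 to 8 of 8 groups for each of the 5 genes with the highest r, and the lowest in 5 to 8 of 8 for each of the 5 with the lowest. With the means of the 3 series removed as well, an alternative added after the data were seen, r lay between 0.518 and 0.796 for the first 5 and between -0.668 and -0.521 for the others. Then 1 of the 10, Dxo, was still among the extreme 10. Of these 10 genes, 5 were among the extreme 10 again with Spearman's rho and 5 with median scaling.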

How the data were processed

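RNA of 24 kidney pools was hybridised to the Affymetrix mouse 430A and 430B chips, 48 arrays in all. The authors deposited 1 linear signal intensity for each probe set. These were produced with GCOS 1.2, per the submitters' processing notes, with the expression algorithm and scaling target not given in the sources used here. Groups came from the sample titles. Symbols came from the platform annotation, updated through Entrez identifiers to the gene table of GRCm38.p6, which also gave gene order: 35041 probe sets had 1 symbol, 936 several and 9160 none, and the last 2 kinds were tested without a name. Probe sets had to exceed the array median on at least 3 of 24 arrays, and each gene was represented by the brightest such probe set by mean log2 signal, from the 430A chip where possible, which left 18642 features, 12838 of them named.

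After a floor of 1, log2 intensities were fitted in limma 3.58.1 (R 4.3.3) with 8 group means for each chip separately. Contrasts weighted groups equally, and p-values were adjusted by Benjamini-Hochberg over both chips together with a threshold of 0.05. For log2 differences ± gives the standard error, and for signals the SD. Precision is limited by the number of arrays. The labels do not say that pools differ in more than their mice. Alternatives were median scaling, quantile normalization, log2(intensity + 64), no filter, adjustment within each chip, the series number as a block, and leaving out each pool.

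Genes named were Dnase1, the 6 nearest kept genes on each side, members of the nuclease, actin, DNA sensing and marker lists with the smallest adjusted p for genotype (up to 4, or 3 for marker lists), the 10 highest and 10 lowest r over pools, 5 and 5 with group means removed, and the label checks. Any other gene was named with its values already seen. The gene and the lists were chosen with earlier results of these data known. Same-numbered pools deviated together only weakly (r between -0.052 and 0.087 over 84 pairs), so the main fit did not treat the number as a pairing. Still, 22 of 24 pools correlated best on average with their own number, and Dnase1 varied with it. The fit with the number as a block is given below. Motifs were searched with pandas 2.3.3, in RefSeq sequence cut to the 250 bases before each start.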

Additional observations from a re-analysis of the deposited data

Results flagged for a closer look

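A difference between groups passed its own interaction test in limma for 3 of the genes named beside Dnase1. The genes read were Dnase1, its neighbours and other genes above that limma called for genotype in these same data. Over all 18642 features limma called 3 for genotype by diet and 15 for genotype by sex. S100g, a calcium-binding protein of the distal tubule, had a genotype difference on low phosphate minus that on the control diet of -2.6 on the log2 scale. Ttr, one of the genes most unlike Dnase1, had 1.22 for the same interaction. Slc22a8, an organic anion transporter of the proximal tubule, had a genotype difference in males minus that in females of 0.71. Groups of 3 pools are too small for a test of outlying pools.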

How the results depend on the processing

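The difference between Hyp and normal pools in Dnase1 ran between -2.08 and -2.05 over median scaling, quantile normalization, log2(intensity + 64), no filter and the block, and between -2.13 and -2.01 when each pool was left out. The sex difference was 0.33 without the filter (adjusted p = 0.0705) and 0.28 to 0.40 when each pool was left out, with 10 of 24 omissions ending the call. Under the other alternatives it stayed called. The diet difference was 0.21 to 0.33 when each pool was left out and passed under no alternative, nor did an interaction of Dnase1: 0.07 to 0.32 for genotype by diet and for genotype by sex, and -0.41 to -0.16 for diet by sex. Features called for genotype numbered 303 to 438, and 304 to 369 when each pool was left out.

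With the series number as a replicate block the sex difference was 0.33 ± 0.08 (adjusted p = 0.00922), the diet difference 0.25 ± 0.08 (adjusted p = 0.215) and the genotype count 438, and the block changed no call of Dnase1. Of 24 pools 22 correlated best with pools of their own number. The number is in the labels and each series holds every group, but the labels do not say what it marks.

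With Spearman's rho 5 of the 10 genes named after removal of group means were shared, and with median scaling 5, and with series means also removed 1. The Nlrc3 genotype difference reversed to -0.023 with median scaling, -0.024 with quantile normalization and -0.003 with log2(intensity + 64), and lay between -0.066 and 0.075 when each pool was left out. For the 1700037C18Rik genotype difference that range was -0.009 to 0.103. The cause was not tested. Median scaling ended 9 other calls for genotype, those of Atp6v0d2, Calb1, Ifi30, Kcnj1, Nat8f1, Pvalb, Scpep1, Slc22a6 and Slc34a1. Dropping the filter ended 5 of these (Atp6v0d2, Calb1, Ifi30, Kcnj1 and Pvalb), and quantile normalization and adjustment within each chip ended that of Atp6v0d2. No other Dnase1 probe set exists on the chips as annotated, so that alternative could not be run. Reliance on 1 probe set limits what can be said of Dnase1 RNA.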
